A study of Mus musculus with 71 samples.

Results

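The cells described here were γδ intraepithelial lymphocytes (γδ IELs) of the mouse small intestine that carried mRNA of Tyrobp, Fcgr3 or Spp1. They were chosen by their own counts in 6 single-cell libraries. A barcode counted as a T cell when it had at least 500 detected genes and at least 5 unique molecular identifiers (UMIs, each 1 captured mRNA molecule) of Cd3d, Cd3e and Cd3g together. A T cell was a member when its summed UMIs of Spp1, Fcgr3 and Tyrobp (S0) reached 2 and exceeded both the sum of Scin, Gzmk and Il7r and the sum of Tgm2, Batf3, Tcf7 and Id3. Of 23994 barcodes 23644 were T cells, and 9256 of them were members. The same kind of rule gave 5535 cells led by Scin, Gzmk and Il7r, 3839 cells led by Tgm2, Batf3, Tcf7 and Id3, and 5014 T cells in none of these classes.

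The study asked how loss of Btnl2, a butyrophilin-like molecule of the intestinal epithelium, affects γδ IELs along the gut. Duodenum, jejunum and ileum were taken from wild-type (WT) mice and from Btnl2-KO littermates, which carry a LacZ reporter in frame with the Btnl2 start codon and a selection cassette in place of a working gene. All animals were C57BL/6 and untreated, female and cohoused, and the CD45+ TCRβ- TCRγδ+ cells of their epithelium were sorted. Each segment and genotype gave 1 single-cell library, from pooled animals labelled as 8 to 10 weeks old. The same sorts gave 22 bulk RNA libraries from animals labelled as 10 weeks old, each a pool of 2 mice: 4 WT and 3 KO of the duodenum, 4 and 4 of the jejunum, 4 and 3 of the ileum. Each single-cell library pooled a portion of the samples of its segment and genotype, per the study's description, so the duodenum, jejunum and ileum libraries of a genotype draw on 1 set of mice. They are regions of the same animals and not separate animals, and each segment has no second library per genotype.

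γδ IELs live between the epithelial cells of the gut, where they patrol the barrier and can kill stressed cells with granzymes. Many of them carry CD8αα and receptors first described on natural killer (NK) cells. Several such receptors have no signalling tail of their own and pair with adaptors that carry activation motifs. DAP12, the product of Tyrobp, and the FcRγ chain, the product of Fcer1g, are such adaptors, and CD16, the product of Fcgr3, is an antibody receptor that signals through FcRγ. Spp1 encodes osteopontin, a secreted protein known to sustain intraepithelial lymphocytes.

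The single-cell libraries held 19262295 to 28156801 UMIs each. Btnl2 had 27, 11 and 6 UMIs in the WT duodenum, jejunum and ileum, and 0, 1 and 0 in the KO libraries, where a count of 0 allows up to 3. LacZ had 16, 11 and 21 UMIs in the KO libraries and 0 in each WT library, so every library matched the genotype of its label. These genes do not check the segment of the label. Pairs of libraries shared 19 to 31 barcodes. Members had a median of 5127 to 5657 UMIs per cell, against 4583 to 5386 in the other T cells of the same libraries, and a mitochondrial share of 2.81 to 3.16%, against 3.56 to 3.91%. Genes of the γδ receptor constant regions were not among the features used here, so the γδ identity of the members rests on the sort. Cd3e, a chain of the T cell receptor complex, stood at 3431 to 3693 counts per 1e6 UMIs (CPM) in members. Cd4 and Cd40lg, the αβ T cell markers that were read, summed to 0.378 to 1.28 CPM in them.

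Since Tyrobp, Fcgr3 and Spp1 are also active in macrophages, the myeloid markers of the members were counted. Of 15 listed markers, 7 to 10 were at 0 in the members of a library. Cd14, Ms4a7, Fcgr1, S100a8 and S100a9 had no UMI in any member, Lyz2 had 10 in all 9256 members and Csf1r had 2. The 15 markers summed to 202 to 219 CPM in members and 153 to 174 CPM in other T cells. Nearly all of that was Cst3, a protease inhibitor made by many cell types, at 190 to 207 CPM in members. Defining macrophage and monocyte genes were thus at or near 0. The 9 listed B cell markers summed to 157 to 283 CPM in members and 198 to 292 CPM in other T cells. The source of this RNA was not tested.

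Tyrobp was the gene that mostly chose the members. At least 98.1% of the members of each library had a Tyrobp UMI, and Tyrobp made up 92.8 to 96.0% of their S0. In the order duodenum WT, duodenum KO, jejunum WT, jejunum KO, ileum WT and ileum KO, which is kept for all series of 6 values, 65.6, 63.3, 68.9, 68.1, 63.2 and 60.4% of members had Tyrobp but neither Spp1 nor Fcgr3. Spp1 was detected in 19.9, 23.3, 20.5, 22.2, 28.5 and 30.9% of members, and Fcgr3 in 19.4, 18.4, 14.2, 14.4, 13.3 and 13.1%. The Spp1 share was thus highest in both ileum libraries and the Fcgr3 share in both duodenum libraries. All 3 genes were seen together in 3.61 to 4.99%. Only 5, 9, 9, 14, 18 and 31 members lacked Tyrobp. Among all T cells with Fcgr3, the ones without Tyrobp were 6 of 337, 9 of 362, 10 of 216, 12 of 221, 14 of 165 and 12 of 230.

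As levels over summed UMIs, Tyrobp stood at 2616, 2526, 2308, 2039, 2097 and 1787 CPM in members and at 47.6 to 61.8 CPM in the other T cells. Spp1 stood at 70.3, 91.7, 82.0, 90.8, 119 and 112 CPM, against 2.70 to 5.18. Fcgr3 stood at 40.1, 41.7, 32.0, 31.1, 28.1 and 27.1 CPM, against 0.783 to 1.22. These values describe the rule and are given without a test. Just inside the threshold, 63, 85, 84, 93, 70 and 115 members had an S0 of 2. Just outside it, 238, 256, 259, 297, 253 and 344 T cells had an S0 of 1, and 115 to 170 T cells per library reached 2 but did not exceed both competing sums. The median S0 of members was 14, 13, 11, 10, 11 and 10, so most members lay far from the threshold.

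Members made up a smaller share of the T cells in the ileum than in the duodenum of both genotypes. The share was 42.7% (1687 of 3953 cells; exact 95% binomial interval 41.1 to 44.2) in duodenum WT and 48.4% (1903 of 3931; 46.8 to 49.99) in duodenum KO. It was 40.1% (1441 of 3592; 38.5 to 41.7) in jejunum WT and 38.0% (1447 of 3807; 36.5 to 39.6) in jejunum KO. It was 30.8% (1139 of 3703; 29.3 to 32.3) in ileum WT and 35.2% (1639 of 4658; 33.8 to 36.6) in ileum KO. These intervals cover counting error only. The ileum lay 11.9 points below the duodenum in WT and 13.2 points below it in KO libraries. The mean difference was -12.6 points, with an exact two-sided permutation p of 0.5, the smallest that 2 libraries per segment allow. The share is a mixture measured after sorting, and it says nothing of the number of members in the gut.

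Between genotypes the share had no common direction. The KO library lay 5.73 points above WT in the duodenum, below it in the jejunum (a difference of -2.11 points) and 4.43 points above it in the ileum. The mean was 2.68 points ± 4.2 (SD, n = 3 segments of 1 pool of mice per genotype), with an exact two-sided permutation p of 0.5, where 0.25 is the smallest possible. With every cell thinned to 1500 UMIs and the rule applied again, the shares were 33.7, 38.7, 30.3, 27.6, 22.4 and 23.5%. The duodenum remained above the ileum in each genotype, and the KO minus WT mean became 1.14 points.

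**Figure D1:**
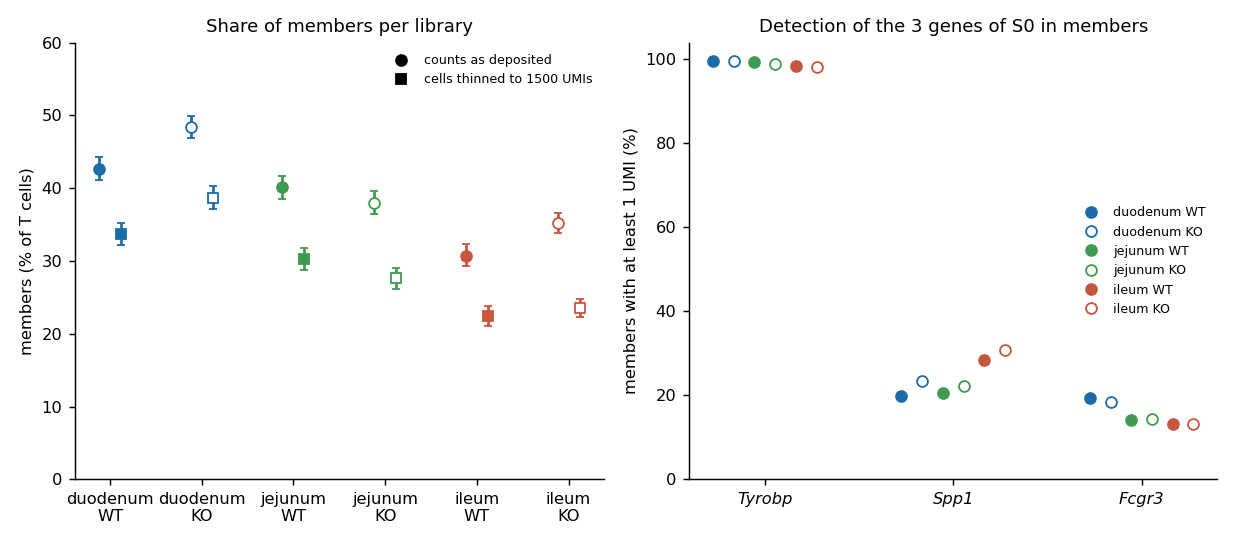
The left panel plots members as a percentage of T cells in each of the 6 single-cell libraries, as deposited (circles) and with cells thinned to 1500 UMIs (squares), with exact 95% intervals; both ileum libraries, at 30.8 and 35.2%, sit below both duodenum libraries, at 42.7 and 48.4%. The right panel plots the percentage of members with at least 1 UMI of each gene of S0, where Tyrobp is near 100% and Spp1 and Fcgr3 lie between 13.1 and 30.9%.

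Among the members' differences from the other T cells of their libraries, the naive, memory and circulating genes were mostly lower and the IEL identity and cytolytic genes mostly higher. NK receptors and signalling adaptors differed in both directions. Because the same cells chose the members, the ratios that follow are descriptions without a test: the log2 ratio of CPM in members over the other T cells of the same library, with 1 CPM added to both, as the median and range over 6 libraries. Of 9623 genes with enough UMIs, 17.0% were higher in members in 6 of 6 libraries and 20.7% were lower in 6 of 6. More than a 2-fold ratio in every library was found for 89 genes higher and 56 lower.

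Of the receptors, Klra5 encodes Ly49E, an inhibitory NK receptor of the lectin type. It stood at 127, 127, 120, 89.3, 119 and 110 CPM in members and at 6.49 to 12.4 CPM in the other T cells, a log2 ratio of 3.46 (3.18 to 3.76). Klrb1a, another lectin-like NK receptor, stood at 142, 155, 121, 130, 134 and 131 CPM, against 22.2 to 41.9, a log2 ratio of 2.09. The receptors Klre1 (log2 ratio 1.46), Klra3 (1.34) and Klra6 (1.33) were also higher in 6 of 6 libraries. Klrd1, the CD94 chain that pairs with NKG2 receptors, was at 1068 to 1228 CPM, against 727 to 883 (0.48). Other NK receptors went the opposite way. Cd226, an activating receptor for nectin-like ligands, stood at 23.4 to 31.6 CPM, against 75.9 to 89.6 (-1.61). Cd160, a receptor typical of IELs, stood at 371 to 481 CPM, against 653 to 825 (-0.74). Klrk1, which encodes NKG2D, ranged from 1.08 to 19.9 CPM in members and from 5.13 to 17.2 CPM in other T cells, so the groups overlapped. Of the 20 listed NK receptors that passed the minimum, 10 were higher in 6 of 6 libraries and 6 lower, with a median log2 ratio of 0.35, against -0.02 over all genes.

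Of the adaptors and proximal kinases, Fcer1g was at 3419, 3518, 3296, 3377, 3311 and 3337 CPM in members and at 1178 to 1445 CPM in the other T cells, a log2 ratio of 1.4 (1.28 to 1.48). Sh2d1b1, the SLAM adaptor EAT-2 of NK cells, was at 76.4 to 83.2 CPM, against 19.9 to 24.0 (1.85). Lat2 (0.74), a LAT-like adaptor of myeloid and NK cells, and the signalling enzymes Plcg2 (0.60) and Vav3 (0.58) were higher in 6 of 6 libraries. Zap70, the kinase of the T cell receptor, was slightly higher (0.29), and Syk, its relative, had 7 UMIs in all members. The partner adaptors of T cell signalling were lower in 6 of 6 libraries. Lat, the scaffold of T cell receptor signalling, was at 217 to 274 CPM, against 481 to 539 (-1.02). Cd247, the CD3ζ chain, was at -0.57, Hcst (DAP10, the adaptor of NKG2D) at -0.36 and Sh2d1a, the SLAM adaptor SAP, at -1.45 on the same scale. Lck, a Src family kinase, was within 0.09 of equality in each library. Of 16 listed genes of this group that passed, 7 were higher in 6 of 6 libraries and 8 lower, with a median of -0.03.

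The promoters of 4 genes that set the members apart are shown to give their sequence context: 2 genes of the rule (Fcgr3 and Spp1), the adaptor Fcer1g and the receptor Klra5. Each is the 250 bases before the start site farthest upstream in RefSeq, build GRCm38.p6, read 5′ to 3′ on the gene's own strand. They lie at chr1:171059404-171059653 (Fcgr3, minus strand), chr5:104434861-104435110 (Spp1, plus strand), chr1:171234350-171234599 (Fcer1g, minus strand) and chr6:129913225-129913474 (Klra5, minus strand). Of 5 genes looked up, 4 matched, and Tyrobp was the one that did not. Capitals mark matches to the letters TGTGGT (RUNX family), GGAAGT (ETS family) or GGTGTG (T-box family), searched on both strands.
Fcgr3: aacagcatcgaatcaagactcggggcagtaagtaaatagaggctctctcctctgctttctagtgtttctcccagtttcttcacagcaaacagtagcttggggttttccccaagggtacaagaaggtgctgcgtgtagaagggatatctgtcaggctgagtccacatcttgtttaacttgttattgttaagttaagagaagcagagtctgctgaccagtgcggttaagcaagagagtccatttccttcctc
Spp1: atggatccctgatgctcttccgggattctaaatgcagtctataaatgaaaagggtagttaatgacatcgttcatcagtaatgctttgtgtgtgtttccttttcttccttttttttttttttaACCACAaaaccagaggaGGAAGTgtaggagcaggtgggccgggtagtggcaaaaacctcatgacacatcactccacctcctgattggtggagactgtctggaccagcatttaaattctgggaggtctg
Fcer1g: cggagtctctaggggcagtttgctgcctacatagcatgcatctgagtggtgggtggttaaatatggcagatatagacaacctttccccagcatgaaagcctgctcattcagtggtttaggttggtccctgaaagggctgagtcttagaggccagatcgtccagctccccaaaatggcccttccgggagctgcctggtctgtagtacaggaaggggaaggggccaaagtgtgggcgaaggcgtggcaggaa
Klra5: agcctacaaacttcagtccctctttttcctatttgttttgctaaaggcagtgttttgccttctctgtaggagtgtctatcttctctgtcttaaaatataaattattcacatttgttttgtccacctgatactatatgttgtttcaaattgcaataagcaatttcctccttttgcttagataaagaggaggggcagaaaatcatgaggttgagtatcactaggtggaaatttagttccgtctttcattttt
Spp1 held 1 match to TGTGGT on the opposite strand, 123 bases before its start, and 1 match to GGAAGT, 106 bases before it. Fcgr3, Fcer1g and Klra5 held none of the 3 words, which says only that these letters are not in these windows. Over 32851 RefSeq promoter windows of the same length, 14.05% held TGTGGT, 19.7% held GGAAGT and 16.3% held GGTGTG. The letters TGTGGT and GGTGTG can overlap each other in 1 stretch of sequence. A match is a description of the letters, not a site.

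Granzyme and IEL genes were present at high levels in both groups and somewhat higher in members. Gzma, a granule protease, stood at 41252, 40628, 45938, 44660, 48438 and 49594 CPM in members and at 23219 to 27760 CPM in the other T cells (0.82; 0.76 to 0.91). Gzmb stood at 8043, 7316, 8873, 6970, 8916 and 7666 CPM, against 4565 to 6735 (0.49; 0.37 to 0.77). For both genes the members did not overlap the other T cells. Il2rb, the receptor chain shared by IL-2 and IL-15, was at 899, 851, 857, 776, 912 and 867 CPM, against 212 to 247 (1.90). Cd7 (0.83), Cd8a (0.79), the chemokine gene Ccl5 (0.49) and the integrin gene Itgae (0.16) were higher in 6 of 6 libraries. Xcl1, a chemokine gene of IELs, overlapped between the groups (-0.54). Of 13 listed IEL genes that passed, 10 were higher in 6 of 6 libraries and 1 was lower. Of 18 listed cytolytic genes that passed, 10 were higher and 2 lower.

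The direction of the Gzmb and Ccl5 ratios, though not of the Gzma ratio, depended on which T cells were set beside the members. Against the cells led by Scin, Gzmk and Il7r, the median log2 ratio was 0.21 for Gzma, -0.14 for Gzmb and -0.05 for Ccl5. Against the cells led by Tgm2, Batf3, Tcf7 and Id3, it was 5.55, 5.28 and 2.88. Klra5 was higher in members than in either class (4.38 and 3.04), as was Fcer1g (1.62 and 1.48), and Thy1 was lower than in either (-3.42 and -4.19). Xcl1 stood between them, above the first class (1.72) and below the second (-1.74).

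Thy1, a surface marker of most mouse T cells, was at 28.6, 23.4, 28.0, 26.6, 42.6 and 51.2 CPM in members and at 343 to 373 CPM in the other T cells, a log2 ratio of -3.63 (-3.82 to -2.72). Cd6, a co-receptor of T cells, was at 0.850 to 2.84 CPM, against 24.9 to 46.8 (-3.79). Cd8b1, the β chain that makes the CD8αβ co-receptor, was at 3.69 to 7.95 CPM, against 30.4 to 44.3 (-2.64), while Cd8a was higher in members. The membrane protein gene Ms4a4b (-3.68) and the T cell receptor regulator Ubash3a (-3.11) were lower in 6 of 6 libraries. The regulators of naive and circulating T cells Klf2 (-2.31), Lef1 (-2.35) and Satb1 (-1.91) were lower as well. Of 11 listed naive, memory and circulating genes that passed, 9 were lower in 6 of 6 libraries and 1, the survival gene Bcl2 (0.48), was higher. The cell class that was set aside by Tcf7 and Id3, 2 genes of this list, was part of the comparison, and Tcf7, Id3 and Il7r belong to the rule and are not counted.

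Transcription factor genes that were higher in members included Irf8, at 140, 146, 141, 127, 136 and 128 CPM against 38.9 to 50.1 (1.62), Nfil3 (0.60) and Prdm1 (0.59). Irf8 acts in the development of myeloid and NK cells, Nfil3 in that of innate lymphoid cells, and Prdm1 in effector lymphocytes. Rora (-1.27) and Zeb2 (-1.12) were lower. Tbx21, the T-box factor T-bet, had a ratio of 0.15 and Runx3 one of -0.05. Of 17 listed factors that passed, 10 were higher in 6 of 6 libraries and 3 lower.

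Inhibitory receptors differed in direction among themselves. Entpd1, the ectoenzyme CD39, was at 66.5, 66.0, 44.6, 37.3, 39.6 and 32.2 CPM, against 10.7 to 23.2 (1.48). Lag3 (1.3), Cd200r1 (1.03), Tigit (0.86) and Cd101 (0.84) were also higher in 6 of 6 libraries. Pdcd1, which encodes PD-1, was at 1.61 to 5.40 CPM, against 10.4 to 17.8 (-1.91), and Havcr2 was at -1.40. Of 15 that passed, 8 were higher in 6 of 6 libraries and 5 lower. Adhesion and homing genes were more often lower, with 10 of 17 lower and 4 higher. Examples are Itgal (-1.90), an integrin of circulating lymphocytes, Cd44 (-1.03) and the gut-homing receptor Ccr9 (-0.92). All 10 interferon-induced genes that passed were lower in 6 of 6 libraries, with a median of -0.59. An example is Isg15, at 63.3 to 77.0 CPM against 105 to 125. Ltb (-1.20), Tnf (-1.03), Csf2 (-0.70) and Ifng (-0.48) were lower among the cytokine genes.

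The 15 genes with the highest ratio held several that belong to none of the lists. Dnm3, a dynamin of membrane traffic, was at 22.8, 23.4, 27.2, 28.9, 34.8 and 38.4 CPM, against 0.813 to 3.04 (3.33). Tmprss6, a membrane serine protease, was at 8.75 to 22.3 CPM, against 0.275 to 1.32 (3.09). Frmd5 (2.94) and C1qtnf6 (2.93) followed. Epcam, an epithelial adhesion gene that IELs can also carry, was at 116 to 178 CPM, against 58.2 to 70.7 (1.09), while Cdh1, the other epithelial adhesion gene read at this level, was lower (-0.41). The 12 epithelial markers summed to 209 to 278 CPM in members and 138 to 203 CPM in other T cells. The part of epithelial RNA in these values was not tested.

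With every cell thinned to 1500 UMIs before the choice of members, the median log2 ratio was 2.88 for Klra5, 1.69 for Klrb1a, 1.18 for Fcer1g, 1.69 for Il2rb, 0.75 for Gzma, 0.47 for Gzmb and -4.17 for Thy1. Genes with more than a 2-fold ratio in every library then numbered 36 higher and 36 lower, of 7628.

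**Figure D2:**
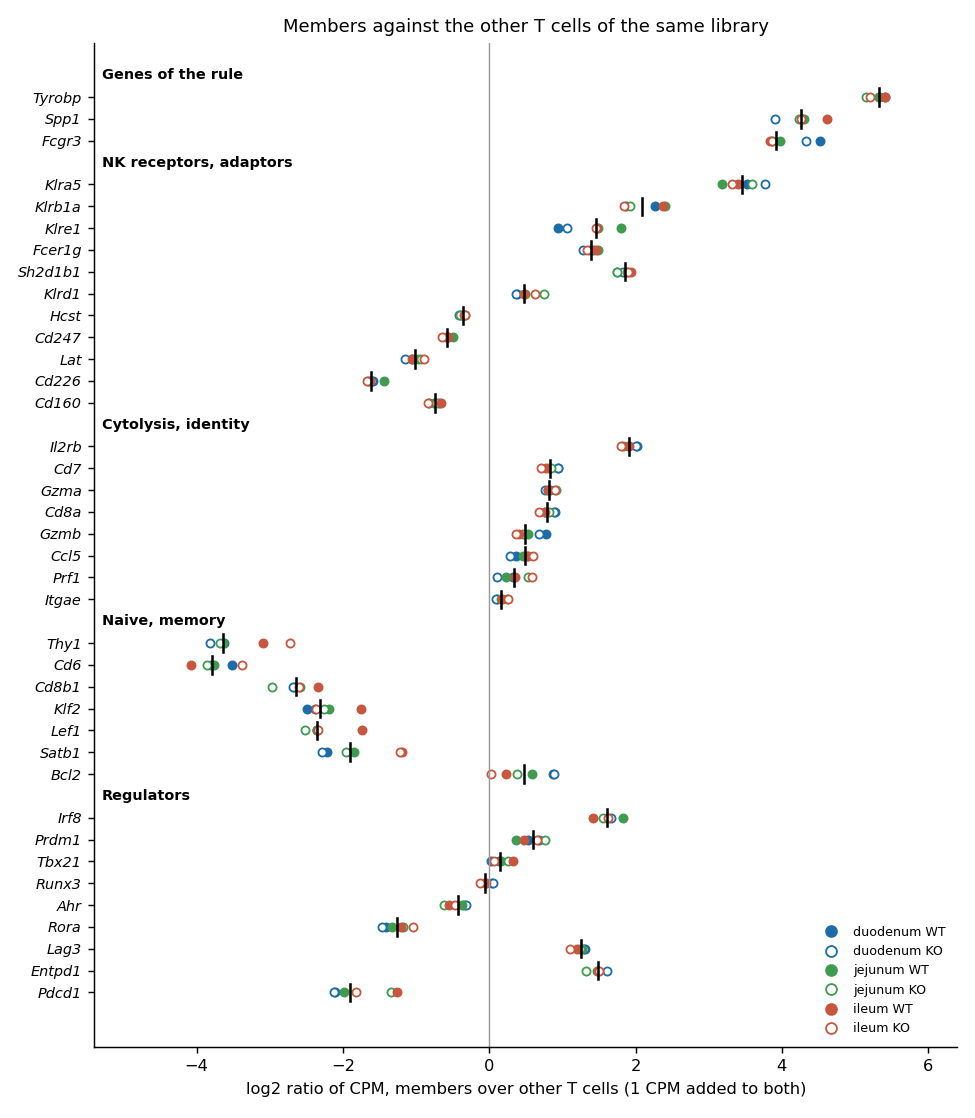
The x axis gives the log2 ratio of CPM in members over the other T cells of the same library (1 CPM added to both), for named genes in rows. Each circle is 1 of 6 libraries and the black bar is their median. Klra5 (3.46) and Fcer1g (1.4) lie to the right and Thy1 (-3.63) and Cd6 (-3.79) to the left in every library.

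Several of these genes changed with S0 at each step, also below the threshold, and others did not. T cells were divided into those with an S0 of 0, 1, 2 or 3, 4 to 9, 10 to 19, and 20 or more, the last 4 classes being members. T cells that reached 2 but did not exceed both competing sums are in none of these classes. Thy1 stood at 81.5 to 193 CPM and Gzma at 22120 to 27653 CPM in those cells. The step into the members therefore also holds this exclusion. Over these classes the median of 6 libraries was 5.56, 24.8, 45.5, 77.1, 127 and 166 CPM for Klra5. It was 1061, 2094, 2776, 3170, 3474 and 3616 CPM for Fcer1g, and 189, 364, 636, 694, 880 and 1069 CPM for Il2rb. Cells with an S0 of 1 thus lay between both sides for each of these genes. Thy1 went from 406 through 172, 54.2, 44.1 and 27.7 to 15.1 CPM, and Lat from 534 through 393, 327, 284 and 241 to 203 CPM. Gzma went from 24327 CPM at an S0 of 0 to 51125 CPM at 20 or more. Gzmb did not rise at every step, at 5433, 6572, 8080, 7033, 7947 and 8557 CPM. Klre1 was highest at an S0 of 4 to 9 (72.1 CPM) and stood at 63.7 CPM at 20 or more. Cd8a stood at 2375 CPM at 2 or 3 and at 2207 CPM at 4 to 9. The levels of Itgae (902 to 1019 CPM) and Cd3e (3307 to 3613 CPM) moved little. The members are a range cut from a score, with 6.02 to 7.80% of T cells at an S0 of 1.

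**Figure D3:**
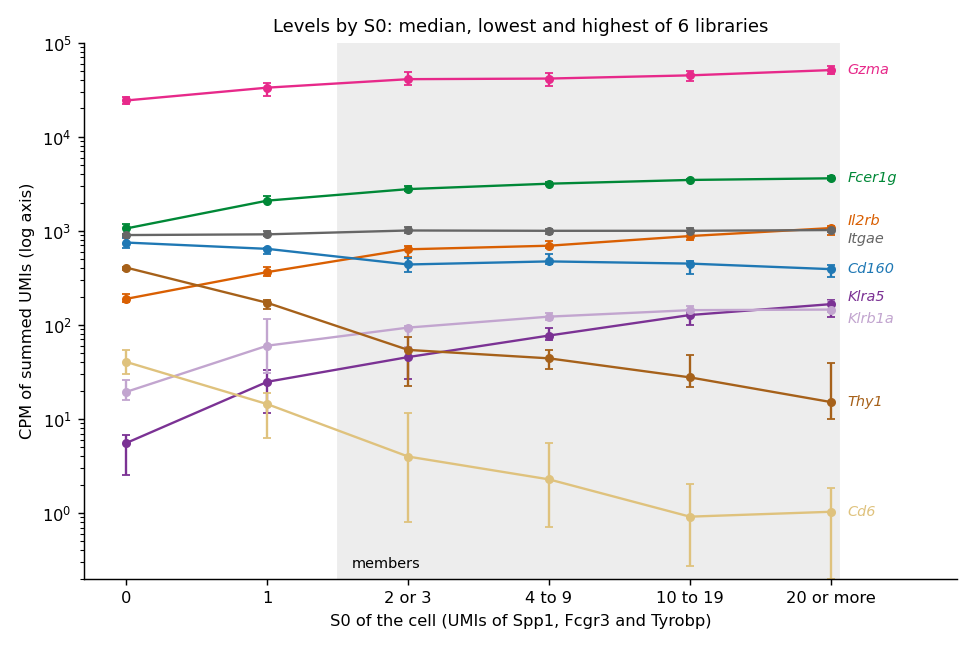
CPM of summed UMIs (log axis) by the S0 of the cell, with the shaded classes being members; points are medians and bars the lowest and highest of 6 libraries. Klra5 runs from 5.56 to 166 CPM and Thy1 from 406 to 15.1 CPM, and the lower bar of Cd6 in the last class ends at the axis because 1 or more libraries had no UMI.

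Members with Spp1 differed from members without it. Spp1 is 1 of the genes that chose the cells, so these values are also given without a test. Il2rb was at 1062 to 1288 CPM in members with Spp1 and at 675 to 775 CPM in those without, a median log2 ratio of 0.66 over 6 libraries. Gzma (0.27) and Gzmb (0.28) were higher with Spp1, and Ltb (-1.19), Xcl1 (-1.27) and the cytokine gene Csf2 (-1.61) lower. The cell division genes Stmn1 (2.87) and Birc5 (2.86) stood far higher with Spp1. After thinning to 1500 UMIs, which sets all cells to 1 depth, Il2rb (0.60), Gzma (0.25), Gzmb (0.33) and Ltb (-0.91) kept their direction. Xcl1 was then at -1.36 with a range of -7.19 to 0.03, so its sign was not the same in every library. Tnfrsf9, the costimulatory receptor 4-1BB, was then at 263 to 416 CPM with Spp1 and at 88.7 to 144 CPM without (1.41). Top2a was then at 0.24 (-1.39 to 1.12), again without the same sign in every library. Stmn1 and Birc5 then had too few UMIs for a ratio, so whether their difference remains at 1 depth was not tested. A different measure was read instead. The share of cells with at least 2 UMIs of the cell cycle list was then 9.57 to 15.5% with Spp1 and 11.2 to 13.7% without, with overlapping intervals in each library. All members together had 11.2 to 14.0% such cells, and other T cells 10.9 to 12.7%.

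Members with Fcgr3 differed from members without it in the counts as deposited. Klra5 was at 149 to 171 CPM with Fcgr3 and at 75.2 to 119 CPM without (0.55). Tmprss6 (0.91), C1qtnf6 (0.70) and Dnm3 (0.67) were higher with Fcgr3, and Thy1 (-0.83), Xcl1 (-1.11) and Csf2 (-1.83) lower. After thinning, the Klra5 ratio was 0.73 with a range of -0.10 to 1.06, so its sign was not the same in every library. The same held for Dnm3 (0.16; -4.58 to 1.31), Il2rb (0.11; -0.12 to 0.38) and Ltb (-0.77; -2.20 to 0.55). Tyrobp had a ratio of 0.05 and Xcl1 one of -0.74 (-7.29 to -0.46).

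Within the members, NK receptor genes such as Klrk1, and T cell genes such as Thy1 and Cd2, were higher in the ileum than in the duodenum, and single genes such as Bcl2 and Xcl1 were lower. This contrast was tested on UMIs of members summed per library with edgeR's quasi-likelihood test, with genotype as a covariate and 2 libraries per segment. The spread behind its p-values is what segment and genotype as additive terms leave over, since replicate libraries are absent. A gene was called when its fold change exceeded 1.5 and its Benjamini-Hochberg adjusted p (FDR) was under 0.05. Of 10689 genes tested, 133 (1.24%) rose and 169 (1.58%) fell in the ileum. These include Scin and Il7r, 2 genes of the rule, from which nothing is read. Levels below are CPM with TMM scaling.

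NK receptor genes rose and none of the list fell. Klrk1, which encodes NKG2D, stood at 1.06, 1.79, 3.14, 8.01, 10.8 and 20.3 CPM, both ileum libraries lying above both duodenum libraries, with a log2 change of 3.44 (SE 0.23, FDR 7.78e-08 by edgeR). Klrc1, which encodes NKG2A, stood at 10.4, 6.58, 8.92, 6.41, 26.0 and 20.1 CPM (1.46, SE 0.13). Klra7, which encodes Ly49G, stood at 6.56, 8.37, 3.39, 9.0, 23.9 and 27.4 CPM (1.77, SE 0.18). For both, the jejunum was close to the duodenum and the ileum stood apart. Klrc2 (2.87), Klra1 (2.32), Klra6 (1.10), Klre1 (0.81) and Klra3 (0.78) also rose, so that 8 of 22 tested NK receptors rose, with a list median of 0.23 against -0.01 over all genes. The rise was not particular to members. In the other T cells 5 of 25 tested NK receptors rose and 0 fell, with a list median of 0.32. Near-identical sequences within the Klra and Klrc families can share reads, so single members of them are uncertain. Klra5 was not called (-0.12, SE 0.074).

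Lgals1, which encodes galectin-1, a carbohydrate-binding protein of activated lymphocytes, stood at 9.64, 9.40, 23.0, 31.7, 63.8 and 53.4 CPM, a log2 change of 2.60 (SE 0.14, FDR 1.09e-08 by edgeR). The libraries rose from duodenum through jejunum to ileum in both genotypes. Thy1 stood at 28.2, 23.3, 27.9, 26.6, 42.7 and 52.1 CPM (0.91, SE 0.10). Cd2 (2.09), an adhesion molecule of T cells, Ms4a4b (1.84) and Satb1 (1.90) rose too. Of 11 tested naive, memory and circulating genes 4 rose, namely Thy1, Cd2, Satb1 and Cd8b1, and Bcl2 fell. The 4 that rose were lower in members than in the other T cells. Among homing genes, Itga4 (0.63), Itgal and Cd44 (0.95) rose. Among inhibitory receptors, Ctla4 rose from 6.75 and 5.26 CPM in the duodenum to 21.8 and 22.2 CPM in the ileum (1.88, SE 0.15), Pdcd1 rose (1.48) and Entpd1 fell (-0.86). Of 13 tested cytokine and chemokine genes, Ifng (0.86) and Il2 (1.49) rose and Xcl1 fell, with a list median of 0.16.

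The survival gene Bcl2 stood at 588, 614, 423, 348, 317 and 257 CPM, a log2 change of -1.08 (SE 0.066, FDR 3.41e-08 by edgeR). Both ileum libraries lay below both jejunum libraries, which lay below both duodenum libraries. Xcl1 stood at 279, 367, 152, 136, 170 and 161 CPM (-0.97). Socs2, a feedback inhibitor of cytokine receptors, stood at 15.7, 15.2, 6.79, 4.81, 4.97 and 7.51 CPM (-1.26). The jejunum was at the level of the ileum for Xcl1 and Socs2. Tmem154 (-2.06) and the member-enriched genes Frmd5 (-1.44) and Tmprss6 (-1.05) fell. The stress and immediate early genes Hspa1a (-3.80), Fosb (-1.54) and Jun (-1.19) fell as well, which are genes that tissue handling is known to induce. The immediate early list did not fall as a whole. Of 19 tested, 2 were called, 9 were above 0 and 10 below, with a median of -0.07. Granzymes were not called. Gzma stood at 40588, 40447, 45822, 44728, 48604 and 50508 CPM, a log2 change of 0.29 (SE 0.023, FDR 4.27e-07), below the fold minimum, and Gzmb changed by 0.14 (SE 0.038). Of 18 tested cytolytic genes none was called by edgeR, with 13 at an unadjusted p under 0.05. As a description of the rule genes, Spp1 differed by 0.53 and Fcgr3 by -0.54.

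Epithelial genes were among the calls. Fabp1, a fatty acid binding protein of enterocytes, stood at 9.74, 10.1, 2.39, 1.6, 0.452 and 0.20 CPM in members and at 13.0, 9.89, 1.73, 1.39, 0.599 and 0 CPM in the other T cells. Defa22, a defensin of Paneth cells, stood at 0, 0.0940, 0.503, 4.81, 6.77 and 2.5 CPM in members and at 0, 0, 4.92, 2.87, 2.32 and 3.77 CPM in the other T cells. Of 10 tested epithelial markers, Fabp2 (1.18) and Phgr1 (1.3) rose and Fabp1 (-4.97) fell. In the other T cells Fabp1 and Defa22 were also called, whereas Fabp2 (0.40) and Phgr1 (0.10) were not. Ighm, a B cell marker, was called lower in the ileum in both cell groups. The part of RNA from other cells in these and the remaining calls was not tested.

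Of the 302 genes called in members, the 2 rule genes included, 91 were called with the same sign in the other T cells, which is 30.1% of the members' calls and 46.0% of the 198 calls in other T cells. Tmem154 (-2.06 in members, -1.84 in other T cells), Entpd1 (-0.86 and -0.83) and Fosb (-1.54 and -1.48) are examples of genes whose change was close in both. The difference itself was tested in 1 fit over members and other T cells with the library as a block, and 62 of 11232 genes (0.552%) were called, 29 with a more positive and 33 with a more negative change in members. Il7r, which is among them, is a gene of the rule. Lgals1 rose by 2.60 in members and 0.73 in other T cells, a difference of 1.87 (SE 0.13, FDR 1.46e-09 by edgeR). Klrk1 differed by 2.28 (SE 0.29), Klra7 by 1.74, Cd2 by 1.73, Ms4a4b by 1.65, Satb1 by 1.55, Zeb2 by 0.91, Thy1 by 0.84, Klrc1 by 0.75, Itga4 by 0.71 and Cd44 by 0.63. In the other direction, Bcl2 stood at 321, 329, 283, 271, 272 and 255 CPM in other T cells, and its change differed by -0.77 (SE 0.051). Socs2 rose in other T cells (0.86) and fell in members, a difference of -2.12 (SE 0.29). The uncharacterised gene 1810011H11Rik (-1.23) and Xcl1 (-0.65, FDR 0.0494 by edgeR) fell more in members. Over 26 tested NK receptors the median difference was 0.04, with 3 called.

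For Lgals1, Klrk1, Cd2 and Ms4a4b the members lay below the other T cells in the duodenum and nearer to them in the ileum. Lgals1 was at 45.0 and 70.6 CPM in the other T cells of the duodenum and 91.2 and 99.5 CPM in those of the ileum. Members have fewer S0 UMIs in the ileum, so the levels were also read in members with an S0 of 10 or more, far from the threshold. There Lgals1 stood at 7.68, 10.8, 24.7, 37.0, 72.7 and 59.4 CPM, Klrk1 at 0.404, 2.36, 3.01, 4.01, 7.29 and 15.2 CPM, and Ms4a4b at 3.10, 2.08, 3.82, 3.34, 10.8 and 8.69 CPM. Thy1 stood at 21.0, 16.8, 18.1, 22.5, 32.7 and 45.0 CPM and Bcl2 at 603, 637, 440, 360, 320 and 263 CPM. Each of these genes kept its direction from duodenum to ileum in both genotypes there. Klrk1 rested on 168 UMIs and Ms4a4b on 164 in all of these cells. Tyrobp still differed between the segments there, at 3206 and 3194 CPM in the duodenum and 2885 and 2573 CPM in the ileum. The part of S0 in these changes was not tested. DESeq2 in place of edgeR called 107 genes in members and 4 differences. The 20 largest differences outside the rule, up to 10 per direction, kept their sign with DESeq2, but none of them was called. Lgals1, Klrk1, Klra7, Cd2, Ms4a4b, Satb1, Socs2 and 1810011H11Rik are among these 20. Without the ileum KO library 28 differences were called, and without the duodenum KO library 34.

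**Figure D4:**
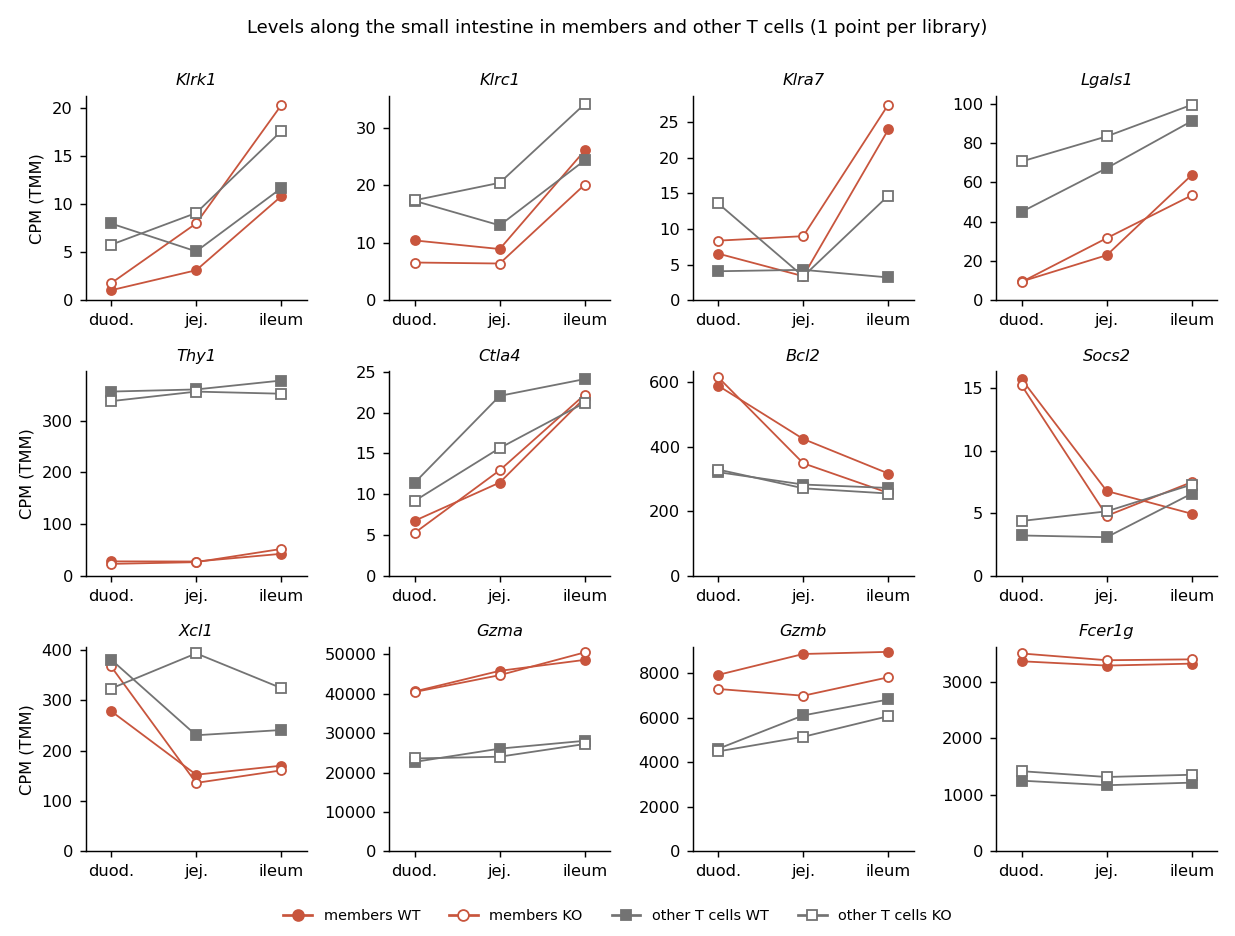
Levels (CPM with TMM scaling, axis from 0) in duodenum, jejunum and ileum of 12 genes, 1 point per library, for members (circles) and the other T cells (squares), WT filled and KO open. Lgals1 in members runs from 9.40 CPM in the duodenum to 63.8 CPM in the ileum, Bcl2 from 614 to 257 CPM, and Fcer1g stays between 3288 and 3502 CPM.

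Few genes differed between Btnl2-KO and WT members. With segment as a covariate and 3 libraries per genotype, which are segments of 1 pool of mice, 6 of 10689 genes (0.0561%) were called, 2 higher and 4 lower in KO, with 848 at an unadjusted p under 0.05. DESeq2 called 0. Nbas, a gene of transport between endoplasmic reticulum and Golgi, stood at 17.1, 28.4, 18.7, 27.6, 19.3 and 27.1 CPM, each KO library lying above its WT partner, with a log2 change of 0.60 (SE 0.084, FDR 0.00574 by edgeR). Klrk1 was higher in KO (1.0, SE 0.17, FDR 0.0289), at low counts. Mid1, a ubiquitin ligase gene, stood at 6.75, 2.54, 5.40, 0.863, 4.37 and 1.5 CPM (-1.72, SE 0.25, FDR 0.00610), and in other T cells at 8.00, 3.50, 7.56, 3.36, 5.91 and 2.47 CPM, so the KO was lower in both cell groups. Adgre5 (-0.71), an adhesion receptor of leukocytes, and the cell division genes Rrm2 (-0.90) and 2810417H13Rik (-0.89) were lower in KO.

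The granzymes and adaptors of the members stood close between genotypes. Gzma differed by 0.00 (SE 0.019), Fcer1g by 0.04 (SE 0.023), Klra5 by -0.15 (SE 0.062) and Gzmb by -0.22 (SE 0.031, FDR 0.00574, below the fold minimum). The count of called genes depended on single libraries: 3 without ileum WT, 26 without jejunum KO, 23 without jejunum WT, 18 without duodenum WT and 17 without duodenum KO. The genotype change of members differed from that of other T cells for 4 of 11232 genes (0.0356%). They were Ncr1, which had 32 UMIs in all members, Klrc1 (-0.87), 2810417H13Rik (-1.16) and Batf3, of which Batf3 is part of the rule.

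The bulk libraries were not used to choose members, and they held the genes of the rule at measurable levels. In bulk RNA, fewer cells of a type and less RNA per cell cannot be told apart. Tyrobp stood at 1037, 702, 671 and 1447 CPM in the duodenum of WT mice and at 638, 1192 and 810 CPM in that of KO mice. In the jejunum it stood at 387, 295, 652 and 500.5 CPM in WT and at 694, 331, 1414 and 383 CPM in KO. In the ileum it stood at 602, 223, 303 and 525 CPM in WT and at 514, 695 and 341 CPM in KO. All 4 WT ileum libraries lay below all 4 WT duodenum libraries, whereas 1 KO ileum library lay above the lowest KO duodenum library. The group means were 964 ± 362 and 413 ± 180 CPM (SD, n = 4) in WT duodenum and ileum, and 880 ± 284 and 517 ± 177 CPM (SD, n = 3) in KO.

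Between WT ileum and WT duodenum, edgeR called 2.16% of 12535 genes, 144 higher and 127 lower. The segments of the same animals were compared as separate groups here, without pairing. Tyrobp changed by -1.22 on the log2 scale (SE 0.34, FDR 0.112) and was not called. DESeq2 gave it an adjusted p of 0.00547, limma-voom with sample quality weights 0.0112, and edgeR without ileum WT replicate 1 0.0357. Between KO ileum and KO duodenum, edgeR called 0.505% of 12477 genes, and Tyrobp changed by -0.73 (SE 0.35, FDR 0.556). Fcgr3 changed by -0.74 (SE 0.39, FDR 0.584) in WT and by -0.81 (SE 0.27, FDR 0.318) in KO. Spp1 changed by 0.00 (SE 0.33) and -0.08 (SE 0.32), Gzma by -0.14 and 0.32, and Gzmb by 0.25 and 0.44, and none of the 5 was called by edgeR. At an unadjusted p under 0.05 stood Tyrobp in WT (0.00388) and Fcgr3 in KO (0.0161).

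Some segment changes of members were also called in bulk, where every γδ IEL contributes, but none of those named here was called by edgeR in both genotypes. Klrk1 stood at 4.58, 9.39, 10.2 and 3.77 CPM in WT duodenum and at 17.8, 15.4, 24.8 and 18.6 CPM in WT ileum, without overlap (1.45, SE 0.32, FDR 0.0370 by edgeR). In KO it changed by 2.36 (SE 0.53, FDR 0.119). Frmd5, one of the member-enriched genes, stood at 9.43, 12.6, 8.85 and 10.5 CPM in WT duodenum and at 4.17, 2.36, 2.33 and 2.88 CPM in WT ileum (-1.81, SE 0.27, FDR 0.00417 by edgeR). In KO it changed by -1.62 (SE 0.32, FDR 0.0880). Bcl2l15, another of the 15 genes highest in members, was called in the opposite direction, higher in WT ileum. Of 14 of these 15 tested in WT, rule genes included, 4 were above 0 and 10 below, with a median of -0.31. Cd44 was called in WT (0.66, FDR 0.0274 by edgeR) and not in KO (0.90, FDR 0.111). Ctla4 (2.16, FDR 0.0456) and Pdcd1 (1.72, FDR 0.0306) were called in KO and not in WT (1.39, FDR 0.0723, and 0.96, FDR 0.11). Bcl2 was not called, at -0.67 (SE 0.16, FDR 0.0630) in WT and -0.43 (SE 0.19) in KO. Thy1 had a change of -0.39 in WT and 0.81 in KO and was not called. Its list, naive, memory and circulating genes with the rule genes included, lay mostly above 0. In WT 18 of 21 tested did (median 0.50, 10 at an unadjusted p under 0.05). In KO 20 of 22 did (median 1.16, 14 at an unadjusted p under 0.05), and edgeR called 0 in either genotype. Ms4a4b was called higher in WT ileum and not called in KO. Of the listed NK receptors, Klrk1 was the 1 called in WT, of 25 tested. In KO edgeR called 0 of 25, with 7 at an unadjusted p under 0.05. Epithelial markers moved with the segment in bulk as well. Their median change was 0.28 in WT, where Krt18 and Fabp1 were called, and -1.15 in KO, where 11 of 12 were below 0 and Fabp1 and Fabp2 were called. Their part in the bulk changes was not tested.

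Between genotypes, edgeR called 1 gene in the duodenum (0.00789% of 12680) and 1 in the jejunum (0.00794% of 12594), which was Btnl2 both times. It called 0 genes in the ileum (0% of 12604), with 1108 at an unadjusted p under 0.05. There DESeq2 called 221 (2 higher and 219 lower in KO) and limma-voom with sample quality weights 1207. In this contrast 10 of 12 epithelial markers were below 0 with a median of -1.19, and 14 of 16 cell cycle genes with a median of -0.91, against 0.06 over all genes. In each list 7 were at an unadjusted p under 0.05 and edgeR called 0, and their part in these counts was not tested. Tyrobp changed by -0.13 (SE 0.29), 0.69 (SE 0.48) and 0.35 (SE 0.38) from WT to KO in duodenum, jejunum and ileum, and was called by none of these tools. In the jejunum, KO replicate 3 stood high for genes of the members. It held Tyrobp at 1414 CPM, Spp1 at 158 CPM, Gzma at 59705 CPM and Klra5 at 97.9 CPM, where the other KO libraries of the jejunum held 331 to 694, 40.6 to 67.1, 14998 to 27011 and 19.2 to 31.9 CPM.

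**Figure D5:**
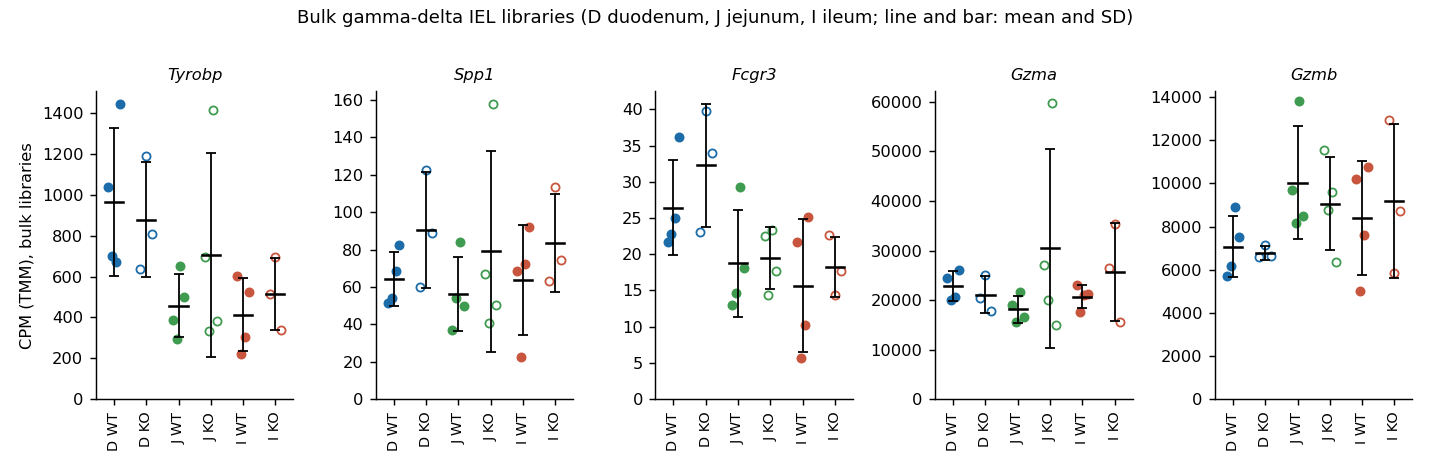
CPM with TMM scaling of the 5 marker genes in the 22 bulk γδ IEL libraries, each circle 1 library of 2 pooled mice, with the group mean and SD as line and bar. Tyrobp in the 4 WT ileum libraries (223 to 602 CPM) lies below the 4 WT duodenum libraries (671 to 1447 CPM), and 1 jejunum KO library stands high for Tyrobp, Spp1 and Gzma.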

How the data were processed

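The single-cell tables held UMI counts per gene and cell, which the authors made with Cell Ranger 2.2.0 on mm10 from a 5′ droplet kit and deposited unnormalised. The bulk table held expected counts per gene from RSEM in ArrayStudio, as deposited, with build GRCm38 per the labels. The labels and the study's methods name different bulk library kits. Of the expected counts 4.91% were not whole, and all were rounded. Bulk libraries held 13444964 to 30029485 counts. Of 24475 bulk gene IDs, 100 had no symbol and held 0.254 to 3.47% of counts. They stayed in the tests under their IDs where they passed the minimum, and 1 bulk column that matched no sample was not used. No 2 bulk libraries of a group agreed within sampling noise (chi-square per degree of freedom at least 14.9).

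Members and gene lists were chosen with earlier results of these data known, and no list is independent support. UMIs of members, and of the other T cells, were summed per library. Cells are not replicates. In bulk, where nothing ties libraries to separate animals beyond the pools, p-values measure the spread between libraries. In the single-cell fits no segment and genotype has a second library. Their p-values measure what the additive terms of the fit leave over, not a spread between replicate libraries. Genes with at least 10 counts in at least 3 sums, or in as many bulk libraries as the smaller group has, were tested with edgeR 4.0.16 (TMM, quasi-likelihood F test, Benjamini-Hochberg adjustment over all genes tested) in R 4.3.3. DESeq2 1.42.0 and limma 3.58.1 (voom, with sample quality weights in bulk) were alternatives. Calls needed an FDR under 0.05 and a fold change above 1.5. Ratios of members to other T cells used CPM of sums, without a test, with 1 CPM added. Each script that fits a model was tested on simulated data. Named genes were the genes of the rule, the markers, the list members and the largest changes (up to 15 per direction for ratios with at least 50 UMIs per library, up to 10 for tests). The genes called in bulk, and the 4 genes of the genotype difference, were named by the same rule. Counts, promoters and plots were made in Python 3.11.15 with pandas 2.3.3 and scipy 1.17.1. Promoters came from a RefSeq table of build GRCm38.p6.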

Additional observations from a re-analysis of the deposited data

Results flagged for a closer look

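Klra5 in bulk γδ IELs of the jejunum of Btnl2-KO mice stood at 97.9 CPM in replicate 3 and at 19.2 to 31.9 CPM in the other 3 libraries. It was singled out because the gap to the nearest library, divided by the range of the group, passed Dixon's 95% limit for 4 samples. Of 48 groups of values looked at in this way 1 passed, and chance passes about 1 in 20. Tyrobp, Spp1 and Gzma were also highest in this library.

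The change from duodenum to ileum differed between members and the other T cells for 62 genes by edgeR's test of the difference itself, with Lgals1 (1.87), Bcl2 (-0.77) and Socs2 (-2.12) among them. DESeq2 called 4 such genes, with neither Lgals1 nor Socs2 among them.

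The change from WT to Btnl2-KO differed between members and the other T cells for 4 genes by the same test. Klrc1 (-0.87) and 2810417H13Rik (-1.16) are the ones outside the rule with counts in every library.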

How the results depend on the processing

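With 1 library per segment and genotype, the single-cell tests rest on few degrees of freedom, and the counts of calls moved with the tool and with single libraries. In members, KO against WT gave 6 genes with edgeR. It gave 0 with DESeq2, 30 with no filter on low counts, 12 with an S0 of at least 3, 17 with no minimum on the fold change, and 3 to 26 with 1 library left out. Ileum against duodenum gave 302 genes, 107 with DESeq2, 1391 with no fold minimum, and 226 to 372 with 1 library left out. Of its 300 calls outside the rule, 277 were called again with the same sign at an S0 of at least 3. The difference from other T cells gave 62 genes, 4 with DESeq2 and 28 to 73 with 1 library left out.

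In bulk, WT ileum against WT duodenum gave 271 genes, 502 with DESeq2, 544 with limma-voom, 125 with all 22 libraries in 1 fit, and 156 (without ileum WT replicate 3) to 618 (without ileum WT replicate 1) with 1 left out. KO ileum against KO duodenum gave 63, 468 with DESeq2, 672 with limma-voom, 125 with no filter, and 15 (without ileum KO replicate 1) to 245 (without ileum KO replicate 2) with 1 left out. KO against WT gave 1 in the duodenum (DESeq2 4, 0 to 3 with 1 left out), 1 in the jejunum (DESeq2 2, all libraries 2, and 0 with any 1 left out) and 0 in the ileum (DESeq2 221, limma-voom 1207, all libraries 2, and 0 to 60 with 1 left out, the 60 without ileum WT replicate 1). The cause of these differences was not tested. All bulk values of limma-voom were made with sample quality weights.

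Thinning left 36 genes higher and 36 lower than 2-fold, of fewer genes tested. Changes of sign were seen in bulk for genes that were not called. Spp1 from WT duodenum to ileum was -0.14 with limma-voom, -0.0047 with all libraries, and -0.21 to 0.29 with 1 left out. Spp1 in KO ranged from -0.40 to 0.17 and Gzma in KO from -0.0080 to 0.57. Between genotypes, leaving out 1 library gave Tyrobp -0.41 to 0.14 and Gzmb -0.15 to 0.081 in the duodenum. It gave Spp1 -0.066 to 0.80, Fcgr3 -0.041 to 0.39 and Gzmb -0.24 to 0.082 (limma-voom 0.039) in the jejunum. It gave Fcgr3 -0.051 to 0.53 and Gzmb -0.18 to 0.36 in the ileum.

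The member share kept its direction between segments under every alternative run (-13.3 to -11.9 points). Scrublet marked 0.0215 to 0.111% of cells and so did not work as a doublet caller. Without the marked cells the member shares were 42.6, 48.4, 40.2, 38.0, 30.7 and 35.2%, and genes were not tested without them. Leaving out the cells above the 95th percentile of UMIs, chosen after seeing the data, took the place of doublet removal. No paired analysis was possible because the labels give no number that links libraries of the groups.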
